A study of Mus musculus with 1646 samples.

Results

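Of the 1646 colon cells sequenced, 96 were compared here, the 52 cells that the sample labels put in cluster 8 and the 44 cells they put in cluster 2, all from mice of the Acta2GFP strain. The study calls cluster 8 interstitial smooth muscle cells (SMC) and cluster 2 fibroblasts of the crypt apex, the end of the gland next to the gut lumen, and the labels themselves give only the numbers. Both clusters came from the same plates, so that a cell of one could be set against a cell of the other within a plate. Plate colon_513s held 40 interstitial SMC and 40 apex fibroblasts, and plate colon_682s held 12 and 4. The Acta2GFP strain gave 567 cells on 2 plates, out of 4 strains and 9 plates in the series. In PdgfrbGFP mice only 4 further cells fell into cluster 8, whereas 87 further apex fibroblasts came from the other strains.

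All mice were male and 10 to 20 weeks old. Acta2GFP mice carry a transgene in which the promoter of *Acta2*, the gene of smooth muscle actin, drives a green fluorescent protein, so the sort favours cells that use this promoter. Their tissue was dissociated with elastase besides the collagenase mixture, and CD31-negative single cells were sorted into 384-well plates. Cells without a count of *Pdgfra* or *Pdgfrb*, and cells with an endothelial or immune signature, had been removed by the study. RNA was read by SmartSeq2, which copies the polyadenylated RNA of a sorted cell along its full length and amplifies it by PCR without molecular identifiers. The labels name no mouse, so p-values measure the spread between plates, which may be technical. The authors defined the clusters on these same counts, and the tests are therefore no independent evidence that the clusters differ.

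Smooth muscle cells contract through actin and myosin filaments, and their contractile genes are switched on by serum response factor together with its coactivator myocardin at a DNA element called the CArG box. Below the gut epithelium lie *Pdgfra*-high fibroblasts, which send bone morphogenetic proteins (BMP) and WNT proteins to the epithelium. The epithelium in turn sends hedgehog proteins to the mesenchyme, where PTCH1 receives them, HHIP binds and sequesters them, and forkhead factors such as FOXL1 respond.

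Cells held 49358 to 667261 counts on genes. The median was 94083 counts on colon_513s and 205396 on colon_682s for interstitial SMC, and 126252 and 563606 for apex fibroblasts, whose 4 cells on colon_682s thus had the highest median and ranged from 77078 to 667261. Thinned to 50000 counts, a cell held a median of 2934 and 3923 genes in cluster 8 and 3483 and 3887 in cluster 2. A level below is the mean over the cells of a plate after each cell was scaled to 500000 counts, and values are given for colon_513s first and colon_682s next. Fold changes come from counts summed per cluster and plate, fitted with the quasi-likelihood method of edgeR, with p-values adjusted by Benjamini-Hochberg over 14985 genes, and a gene was called where the adjusted p was under 0.05.

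Of the marker genes that go with these clusters, 1 was shared and 2 parted them. *Rgs10* (chr7:128373621-128418758, minus strand, GRCm38), a regulator that shortens G protein signalling, stood at 521 and 302 in interstitial SMC and at 331 and 348 in apex fibroblasts. The plates of the clusters overlapped, and the log2 fold change of 0.35 had a 95% interval of -0.87 to 1.57 and was -0.11 without colon_513s. In the clusters used as references, *Rgs10* was low. Its mean was 3.93 in the vascular SMC of cluster 3 and 20.8 in the fibroblasts of clusters 1, 5 and 7. Adding cluster 6, a further fibroblast cluster, to the latter lowered the log2 fold change of apex fibroblasts from 4.19 to 3.65. No vascular SMC reached 100 counts per 500000, whereas 47 of 52 interstitial SMC and 39 of 44 apex fibroblasts did.

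*Hhip* (chr8:79965851-80058006, minus strand), the hedgehog-binding protein, stood at 1430 and 1036 in interstitial SMC and at 7.19 and 0.986 in apex fibroblasts. Every interstitial SMC lay above 100 and no apex fibroblast did, and the log2 fold change was 8.11 (SE 0.957, adjusted p = 0.000609, edgeR). *Pdgfra* (chr5:75152292-75198215, plus strand), the receptor for platelet-derived growth factor A, went the other way, with 13.4 and 25.8 in interstitial SMC and 1271 and 1414 in apex fibroblasts. All 44 apex fibroblasts and 1 of the 52 interstitial SMC, at 313, lay above 100. Its log2 fold change was -6.89 (SE 0.612, adjusted p = 3.75e-05, edgeR). Apart from that cell, the populations did not meet on either gene.

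*Foxl1* (chr8:121127940-121130644, plus strand) was found in both clusters but in unequal shares of their cells. Its level was 75.2 and 20.6 in interstitial SMC and 173 and 142 in apex fibroblasts, so the plates did not overlap. A count was present in 20 of 40 interstitial SMC of colon_513s (50%, 95% Clopper-Pearson interval 33.8 to 66.2) and in 2 of 12 of colon_682s (16.7%, 2.09 to 48.4). In apex fibroblasts it was present in 37 of 40 cells (92.5%, 79.6 to 98.4) and in 4 of 4 (100%, 39.8 to 100). After thinning to 50000 counts these 4 shares were unchanged. In the clusters used as references, 2 of 29 vascular SMC (6.90%, thinned 3.45%) and 50 of 429 fibroblasts of clusters 1, 5 and 7 (11.7%, thinned 5.40%) had a count. The median depth was 88212 and 311262 counts in the vascular SMC. These intervals treat each cell as 1 draw from its plate and do not cover the spread between plates, and the counts, without molecular identifiers, are not independent molecules. The fold change between the clusters did not pass the test (log2 -1.96, 95% interval -5.27 to 1.36, adjusted p = 0.656, edgeR). It was -4.12 without plate colon_513s and -1.25 without colon_682s. Against vascular SMC, interstitial SMC had a *Foxl1* log2 fold change of 7.60 that also missed the threshold (adjusted p = 0.15), whereas apex fibroblasts were called higher than clusters 1, 5 and 7 (log2 7.01, adjusted p = 0.00318).

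**Figure D1:**
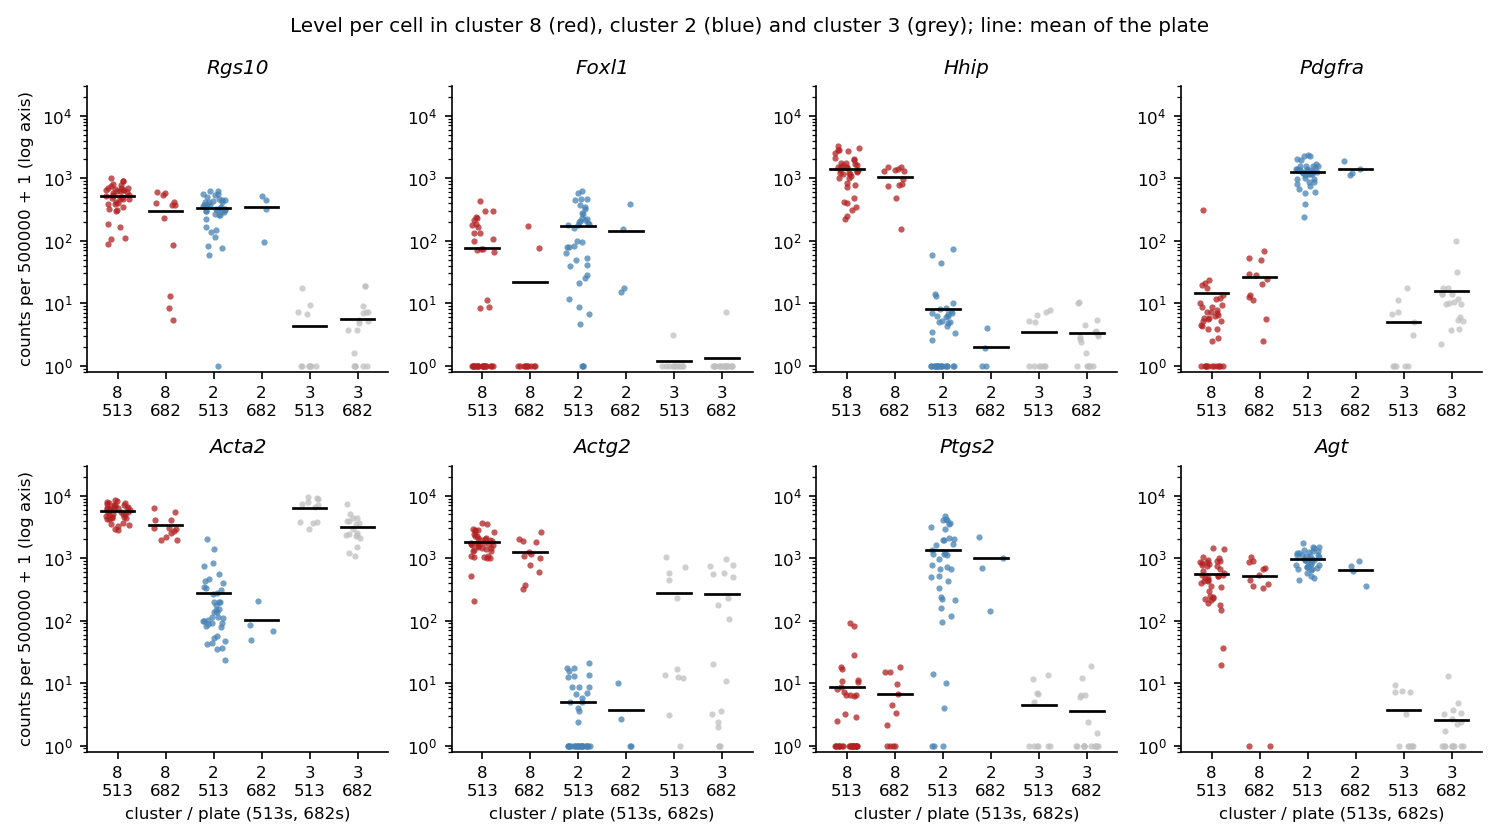
Level of 8 genes in each cell of clusters 8, 2 and 3, by plate, in counts per 500000 plus 1 on a log axis, with a line at the plate mean. *Rgs10* and *Agt* lie at similar heights in clusters 8 and 2 and near the floor in cluster 3, *Hhip*, *Acta2* and *Actg2* are high in cluster 8, *Pdgfra* and *Ptgs2* are high in cluster 2, and *Foxl1* is spread from 0 upward in both.

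Across all genes, 56 of 14985 (0.374%) were called higher in interstitial SMC and 64 (0.427%) higher in apex fibroblasts. Genes whose plate levels did not overlap were far more frequent, at 3072 (20.5%) above in interstitial SMC and 2200 (14.7%) above in apex fibroblasts. With further criteria after those of the study (log2 2 or more, and 100 counts in 30% or more of the cells, read here as raw counts in the higher cluster), 18 genes (0.120%) were enriched in interstitial SMC and 22 (0.147%) in apex fibroblasts. With scaled counts they were 44 and 42. The number of genes called rested on both plates, since 13 genes were called without colon_513s, 10 without colon_682s and 37 without the 4 apex fibroblasts of colon_682s, in place of 120. Limma voom called 30 higher and 91 lower. An unadjusted p under 0.05 was found for 1765 genes.

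**Figure D2:**
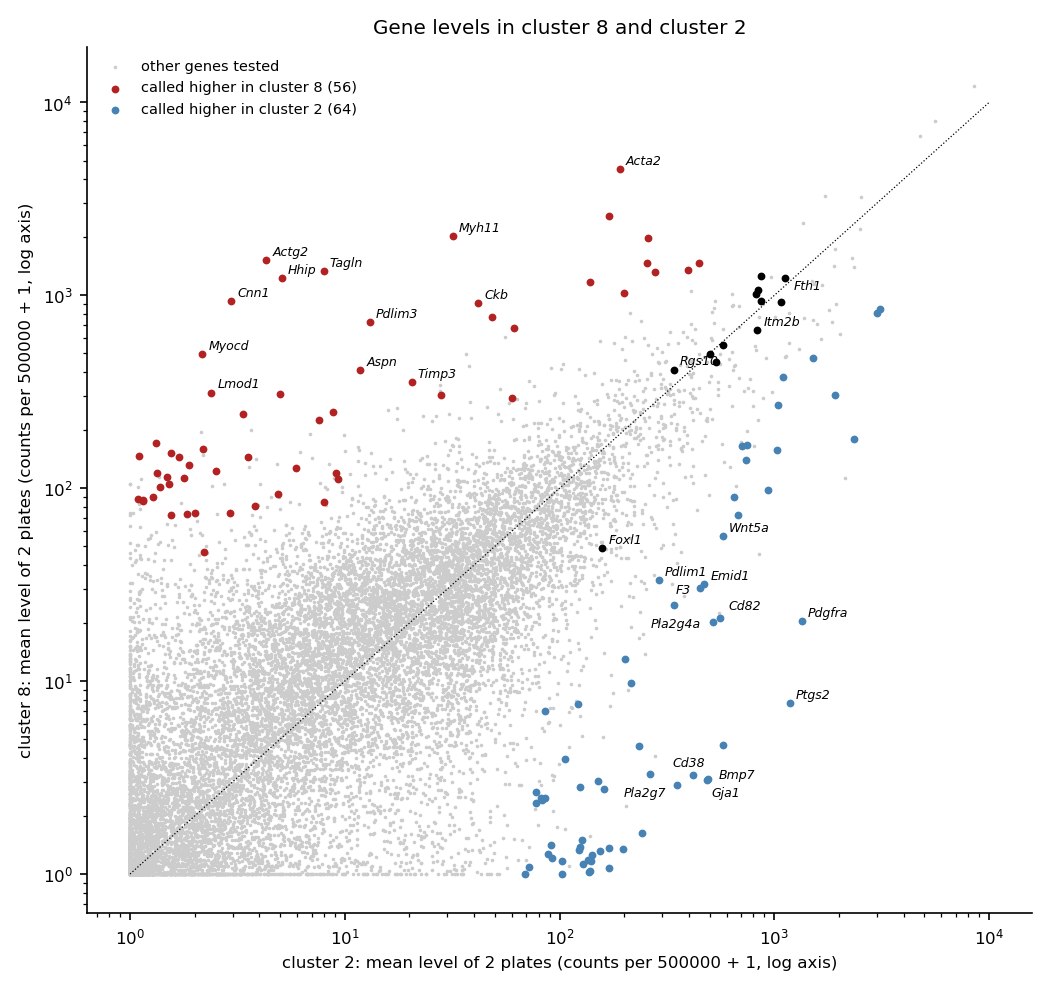
Mean level of each tested gene over the 2 plates in cluster 8 against cluster 2, in counts per 500000 plus 1 on log axes, with the 56 genes called higher in cluster 8 in red, the 64 called higher in cluster 2 in blue and the remaining named genes in black. The dotted line marks equal levels, and *Rgs10* lies close to it, *Foxl1* lies toward cluster 2, and *Hhip*, *Actg2*, *Pdgfra* and *Ptgs2* lie far from it.

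The genes higher in interstitial SMC were led by the contractile apparatus. *Cnn1*, the actin-binding calponin of smooth muscle, stood at 1030 and 834 against 2.88 and 1.03 in apex fibroblasts (log2 fold change 8.76, SE 0.795, adjusted p = 3.75e-05, edgeR). *Actg2*, the actin isoform typical of gut muscle, stood at 1794 and 1244 against 3.95 and 2.67 (log2 8.41, SE 0.679). The lowest interstitial SMC held 203 counts of *Actg2* per 500000 and the highest apex fibroblast 19.7, so that no cell of one cluster reached the other. *Tagln*, the actin-bundling transgelin, differed by a log2 fold change of 7.42, and *Lmod1*, which starts new actin filaments, by 7.66. *Pdlim3*, a scaffold of the actin anchorage, differed by 6.40.

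*Myh11*, the myosin heavy chain of smooth muscle, stood at 1776 and 2274 against 50.1 and 11.6 (log2 5.93, SE 1.17, adjusted p = 0.0262, edgeR). It was not called with plate as a block (log2 5.74) or by voom (6.23). The log2 fold change was 7.90 without colon_513s, 5.14 without colon_682s and 5.11 with at least 10 cells per sum. *Acta2* itself stood at 5642 and 3355 in interstitial SMC and at 278 and 101 in apex fibroblasts (log2 4.40, SE 0.701, adjusted p = 0.00812, edgeR). It was not called by voom (log2 4.44), without the 4 apex fibroblasts of colon_682s (3.74), with at least 10 cells per sum (3.77) or without either plate (4.95 and 4.15). Every one of the 44 apex fibroblasts held a count of this gene, whose promoter drives the reporter of the strain, with levels from 22.8 to 2050. On colon_513s their summed level of the 12 named genes of interstitial SMC, *Acta2* included, was correlated with how many such counts the cells sharing a cell's row or its column held (Spearman's rho 0.416 over 40 cells), and the part of this in the level was not tested. In vascular SMC the level of *Acta2* was 6395 and 3167.

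Among the 26 genes of the contractile list, all tested, 13 were called higher in interstitial SMC (0.374% of all genes were) and none lower, with a median log2 fold change of 2.44 against 0.08 over all genes. The plates of interstitial SMC lay wholly above for 23 of them, against 20.5% of all genes. The summed level was 25588 and 22050 in interstitial SMC, 3200 and 3724 in apex fibroblasts, 28612 and 18757 in vascular SMC and 1642 and 1734 in clusters 1, 5 and 7. Apex fibroblasts were not bare of this list, since 8 of its genes (*Cald1* and *Vcl* among them) were called higher in them than in clusters 1, 5 and 7, where 3.02% of all genes were, and *Des* was called lower. *Mylk*, the kinase that switches smooth muscle myosin on, stood at 886 and 1170 in interstitial SMC, 224 and 174 in apex fibroblasts and 11.1 and 15.3 in clusters 1, 5 and 7, and was called in both comparisons. *Cald1*, the actin-bound caldesmon, stood at 437 and 516.2 in interstitial SMC and 421 and 516.2 in apex fibroblasts, and its fold change of log2 -0.13 had a 95% interval of -0.92 to 0.66. *Des*, the intermediate filament desmin, stood apart from these 8 genes, with 0.748 and 1.63 there, 46.9 and 32.9 in clusters 1, 5 and 7, and 237 and 79.1 in interstitial SMC.

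Over all genes 0.374% were called higher in interstitial SMC and 0.427% higher in apex fibroblasts. *Myocd*, which encodes myocardin, was the only one of 28 tested smooth muscle and mesenchymal transcription factors to be called between the clusters. It stood at 508 and 484 in interstitial SMC and at 1.28 and 1.06 in apex fibroblasts (log2 8.60, SE 0.999, adjusted p = 0.000555, edgeR). Of 16 tested HOX genes, which lay out position along the body, none was called, which at those shares says little of them. Of the 34 HOX genes listed, 20 were at 0 in each cluster. Their summed level was 164 and 170 against 97.1 and 180. Among 19 tested channels and calcium handling genes, *Kcnmb1* and *Trpc6* were called higher in interstitial SMC (0.374% of all genes were). *Kcnmb1* encodes a subunit of the calcium-activated potassium channel and *Trpc6* a cation channel. *Kcnmb1* stood at 107 and 131 against 0.252 and 0.418. None of 19 tested receptor and cyclic nucleotide genes was called, which at the shares over all genes says little of this list.

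Further genes higher in interstitial SMC lay outside the contractile list. *Aspn*, a small matrix proteoglycan, stood at 515 and 302 against 3.78 and 17.8 (log2 5.41). *Timp3*, an inhibitor of metalloproteinases, stood at 333 and 379 against 13.5 and 25.5 (log2 4.64). By voom neither was called (5.92 and 4.76), and the *Aspn* log2 fold change was 4.25 without colon_513s and 7.15 without colon_682s. In clusters 1, 5 and 7 *Aspn* stood at 474 and 523 and *Timp3* at 533 and 520, and both were called lower in apex fibroblasts than there. *Ckb*, a creatine kinase, stood at 1056 and 769 against 54.3 and 27.0 (log2 4.94, adjusted p = 0.0106, edgeR). It was not called by voom (log2 5.09), and its log2 fold change was 6.04 without colon_513s and 4.47 without colon_682s.

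The promoters of the called genes were searched for the CArG box, because myocardin parted the clusters so widely. Of the 56 genes called higher in interstitial SMC, 42 matched a RefSeq promoter window (GRCm38.p6, from 250 bases before the start site to 50 after it), and 5 of these (11.9%) held the box. Of the 64 genes called higher in apex fibroblasts 48 matched and 1 (2.08%) held it, and of the 36 shared genes described below 24 matched and 1 (4.17%) did. Among all tested genes, 173 of 10449 matched (1.66%) did, and of all windows 535 of 32851 (1.63%). A match to the box on a strand is also a match on its complement, though the letters may then differ, and no other motif was searched. A match describes these letters and says nothing of binding. Each stretch below gives 15 bases before and after the box, which is in capitals, on the strand of the gene, 5′ to 3′.
*Myl9*, the regulatory light chain of myosin, chr2:156775288-156775327, plus strand, 161 bases before the start: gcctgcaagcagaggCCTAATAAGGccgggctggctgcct
*Asb2*, a substrate adaptor of a ubiquitin ligase, chr12:103356041-103356080, minus strand, 64 bases before: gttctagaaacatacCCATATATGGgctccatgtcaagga
*Fhl1*, a LIM domain protein, chrX:56779566-56779605, plus strand, 102 bases before: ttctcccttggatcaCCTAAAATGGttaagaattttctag
*Lmcd1*, another LIM domain protein, chr6:112273528-112273567, plus strand, 215 bases before: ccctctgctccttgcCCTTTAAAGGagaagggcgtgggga
*Trpc6*, chr9:8544005-8544044, plus strand, 122 bases before: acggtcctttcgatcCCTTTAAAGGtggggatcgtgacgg
*Lef1*, a nuclear effector of WNT, higher in apex fibroblasts, chr3:131112676-131112715, plus strand, 100 bases before: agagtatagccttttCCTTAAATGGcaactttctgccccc
*Col6a4*, a collagen VI chain, among the shared genes, chr9:106096878-106096917, minus strand, 211 bases before: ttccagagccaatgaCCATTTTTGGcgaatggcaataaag

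*Myl9* stood at 2944 and 2190 in interstitial SMC and at 144 and 193 in apex fibroblasts (log2 3.74, adjusted p = 0.000214, edgeR). *Fhl1* stood at 1223 and 1132 against 114 and 162, and was likewise high, at 628 and 627, in clusters 1, 5 and 7. *Asb2*, *Lmcd1* and *Trpc6* were at or below 0.450 in apex fibroblasts on both plates and between 70.3 and 189 in interstitial SMC. *Lef1* showed the reverse, with 0.380 and 0.297 in interstitial SMC and 79.8 and 164 in apex fibroblasts, so a box before the start was present on either side of the comparison.

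Among the genes higher in apex fibroblasts were several that encode secreted signals. *Bmp7*, a BMP ligand, stood at 2.73 and 1.45 in interstitial SMC and at 641 and 339 in apex fibroblasts (log2 -8.14, SE 0.734, adjusted p = 3.75e-05, edgeR). *Wnt5a*, a WNT ligand, stood at 38.9 and 72.3 against 456 and 696 (log2 -3.83, SE 0.692, adjusted p = 0.0175, edgeR). Its log2 fold change was -3.32 without the 4 apex fibroblasts of colon_682s and -3.24 with at least 10 cells per sum. *Fgf7*, a growth factor for epithelium, stood at 97.3 and 81.7 against 527 and 771 (log2 -3.55, adjusted p = 0.0431, edgeR). *Bmp7* was near its floor in interstitial SMC, whereas *Wnt5a* and *Fgf7* were lower there but present.

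*Ptgs2*, the inducible cyclooxygenase that begins prostaglandin synthesis, stood at 7.77 and 5.62 in interstitial SMC and at 1362 and 996 in apex fibroblasts (log2 -7.87, SE 1.49, adjusted p = 0.0229, edgeR). Its cells were unequal, with 37 of 44 apex fibroblasts above 100 counts per 500000 and a range of 0 to 4786, and no interstitial SMC reached 100. *Pla2g4a*, the phospholipase that frees arachidonic acid for it, stood at 19.7 and 19.01 against 508 and 530 (log2 -4.99, adjusted p = 0.00666, edgeR). The receptor side leaned the other way for *Tbxa2r*, the thromboxane receptor, at 55.4 and 114 in interstitial SMC and 0.0781 and 0.209 in apex fibroblasts. These were the 3 genes called among 16 tested of prostaglandin synthesis and reception. Over all genes 0.374% were called higher in interstitial SMC and 0.427% higher in apex fibroblasts.

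Among the other leading genes were *Pla2g7*, which breaks down platelet-activating factor (1.43 and 2.38 against 288 and 418), and *Cd38*, an enzyme that consumes NAD (4.29 and 0.207 against 392 and 446). *Gja1*, the gap junction protein connexin, stood at 1.45 and 2.68 against 397 and 574. *F3*, tissue factor, which starts coagulation, stood at 23.3 and 35.6 against 436 and 465, and the tetraspanin *Cd82* at 20.8 and 19.8 against 564 and 548. *Emid1*, a matrix protein, stood at 37.2 and 24.7 against 594 and 347, and *Pdlim1*, an actin-anchoring adaptor, at 20.4 and 44.6 against 328 and 249. The 7 genes given so far in this paragraph were called, with log2 fold changes from -8.44 (*Pla2g7*) to -3.77 (*Pdlim1*). With plate as a block *Gja1* (-8.32) and *Cd38* (-8.17) were not called, and by voom *Gja1* (-7.94) and *Pdlim1* (-3.88) were not. The *Cd38* log2 fold change was -11.6 without colon_513s and -6.54 without colon_682s. *Cd82* differed from the rest in standing at 179 and 186 in vascular SMC. *Ccdc3* and *Gm26776* were both called higher in apex fibroblasts, but reads of overlapping loci may have been split between them, so their separate values are uncertain.

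**Figure D3:**
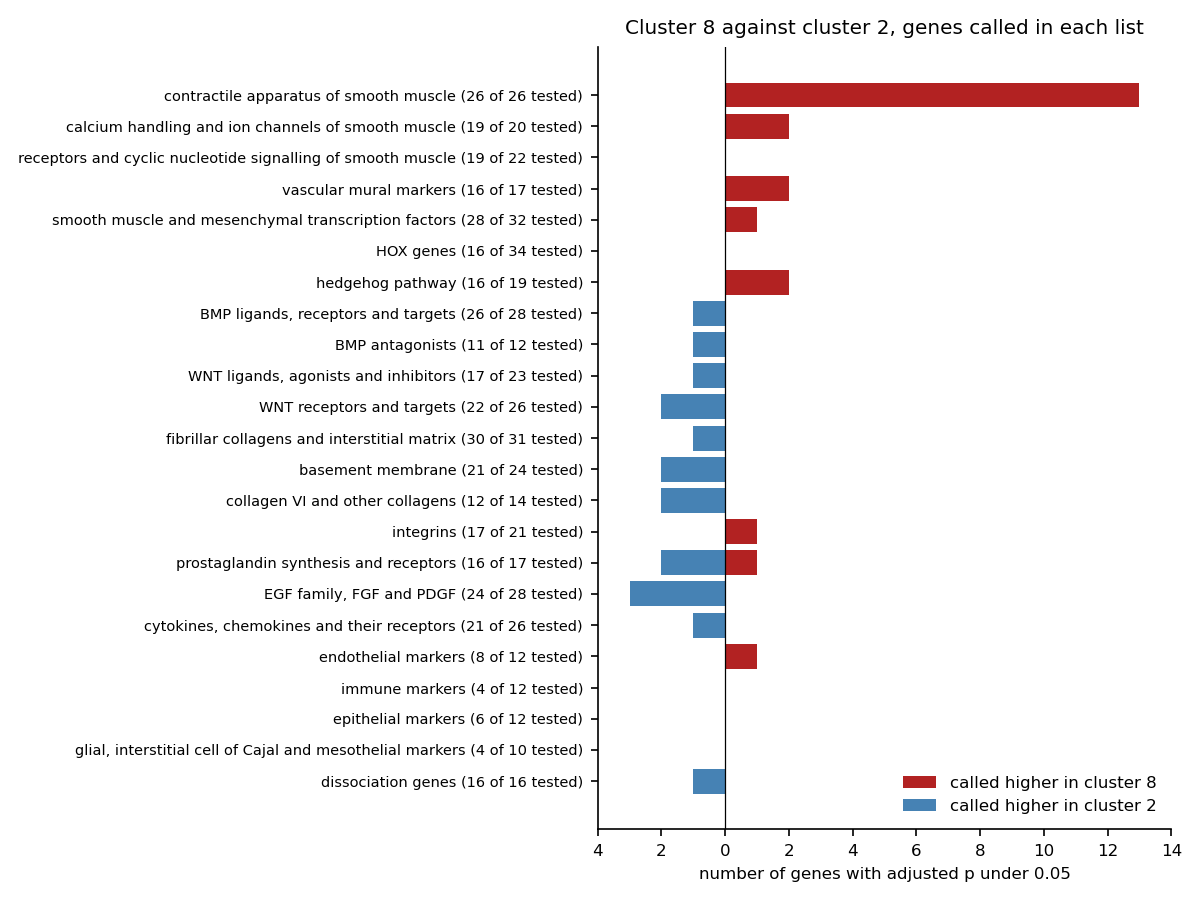
Number of genes of each of 23 lists that were called in cluster 8 against cluster 2, with genes higher in cluster 8 to the right in red and genes higher in cluster 2 to the left in blue. The contractile list has 13 of 26 genes to the right, no other list has more than 3 on either side, and the receptor, HOX, immune, epithelial and glial lists have none.

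Calls between the clusters also touched the matrix. Of 30 tested fibrillar and interstitial matrix genes, only *Sparcl1*, an antiadhesive protein, was called (0.427% of all genes were called higher in apex fibroblasts). It stood at 594 and 356 in interstitial SMC against 1557 and 1472. The plates of apex fibroblasts lay wholly above for 11 of the 30 (14.7% of all genes did) and those of interstitial SMC for 6 (20.5%). Against vascular SMC, 7 genes of this list were called higher in interstitial SMC (0.634% of all genes were) and *Sparcl1* and *Thbs1* were called lower (0.174%). *Postn*, the matrix protein periostin, stood at 2493 and 2276 in interstitial SMC, 1649 and 1072 in apex fibroblasts and 14.8 and 130 in vascular SMC, with a fold change between the clusters of log2 0.63 (95% interval -0.45 to 1.71). *Col3a1*, a fibrillar collagen, stood at 1625 and 1195 in interstitial SMC, 2473 and 2224 in apex fibroblasts and 31.8 and 267 in vascular SMC.

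Of 12 tested genes of collagen VI and other collagens, *Col6a1* and *Col6a2* were called higher in apex fibroblasts (0.427% of all genes were). Both encode chains of the beaded collagen VI filament around cells. *Col6a1* stood at 927 and 771 against 3652 and 2546 and *Col6a2* at 1019 and 598 against 3902 and 2141 (log2 -1.996 and -2.11, adjusted p = 0.0172 and 0.0297, edgeR), and in vascular SMC *Col6a1* was at 57.2 and 95.2. *Col6a3*, at 217 and 233 against 788 and 894, was not called (log2 -1.93, 95% interval -3.20 to -0.65, adjusted p = 0.199, edgeR). In the basement membrane list *Lamb1*, a laminin chain, and *Col4a6*, a collagen IV chain, were called higher in apex fibroblasts, of 21 tested (0.427% of all genes were). *Mmp2*, a gelatinase, stood at 204 and 153 against 2752 and 1970 (log2 -3.64, adjusted p = 3.75e-05, edgeR), and *Timp1*, an inhibitor of such enzymes, at 2.54 and 0.972 against 190 and 131. Of 17 tested integrins, only *Itga8* was called (0.374% of all genes were called higher in interstitial SMC). It stood at 108 and 64.4 in interstitial SMC and at 0.209 or less in apex fibroblasts.

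In the hedgehog list *Hhip* and *Gas1*, a co-receptor, were called higher in interstitial SMC of 16 genes tested (0.374% of all genes were). *Gas1* stood at 72.0 and 73.5 against 0.582 and 1.08 and was not low in clusters 1, 5 and 7, at 108 and 49.3. *Ptch1*, the receptor and a known target of the pathway, stood at 324 and 262 in interstitial SMC and at 259 and 578 in apex fibroblasts, and the plates overlapped (log2 -0.81, 95% interval -2.17 to 0.56). In vascular SMC it was at 25.9 and 26.2 and in clusters 1, 5 and 7 at 93.1 and 129, so it was called higher in both clusters against their own references. *Gli1*, another target, was low throughout, at 22.3 and 50.2 against 23.6 and 27.2, and its interval of -2.42 to 2.42 leaves a wide range of differences. *Gas1* and *Hhip* were called lower in apex fibroblasts than in clusters 1, 5 and 7. For *Hhip* the log2 fold change was -3.10 (adjusted p = 0.0217, edgeR), although it was not called in 6 of 11 alternatives, among them without colon_682s (log2 -2.32), voom (-3.30) and clusters 1, 5, 6 and 7 as the reference (-2.28).

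Beside each list of this paragraph, 0.374% of all genes were called higher in interstitial SMC and 0.427% higher in apex fibroblasts. Of 26 tested BMP genes, *Bmp7* alone was called between the clusters. The plates of apex fibroblasts lay wholly above for 13 of them (14.7% of all genes did) and those of interstitial SMC for 6 (20.5%). The median log2 fold change of the BMP list was -1.35. *Bmp5* stood at 170 and 160 in interstitial SMC and at 797 and 816 in apex fibroblasts without passing the test (log2 -2.40, 95% interval -3.69 to -1.10, adjusted p = 0.108, edgeR). *Bmp4* stood at 367 and 447 against 648 and 628, and was called higher in interstitial SMC than in vascular SMC, where it was at 5.42 and 38.4. *Twsg1*, an extracellular modulator of BMP, was the only call among 11 tested antagonists, at 176 and 139 against 1021 and 1026. Besides *Wnt5a*, the WNT lists held calls for *Lef1* and for *Lgr5*, an R-spondin receptor known from epithelial stem cells, at 6.79 and 0.437 against 222 and 247. The receptor gene *Il1rl1* was the only cytokine gene called of 21 tested, at 0.452 and 0.297 against 114 and 133. Of 24 tested genes of the EGF, FGF and PDGF families, *Fgf1*, *Fgf7* and *Pdgfra* were called higher in apex fibroblasts (0.427% of all genes were) and none lower. The plates of apex fibroblasts lay wholly above for 11 of the 24 and those of interstitial SMC for 3.

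To find what the clusters share, each was set against other cells of its kind. Interstitial SMC were set against the 29 vascular SMC and apex fibroblasts against the 429 cells of clusters 1, 5 and 7. Cluster 6, which the study also counts as fibroblasts and which held 5 cells on each plate, was left out of this reference. The references have no cell in common but lie on the same plates. In interstitial SMC 95 genes (0.634%) were called higher and 26 (0.174%) lower than in vascular SMC, and in apex fibroblasts 452 (3.02%) were called higher and 113 (0.754%) lower than in clusters 1, 5 and 7. The balance moved with the model. Against vascular SMC it was 698 higher and 535 lower by DESeq2, 298 and 282 by limma on means per cell and 102 and 133 by voom. For apex fibroblasts it was 771 and 767, 370 and 490, and 405 and 31 in the same order. Both lists held 36 genes (0.240% of those tested), which are 37.9% of the 95 and 7.96% of the 452. Without colon_513s the shared count was 8, and without colon_682s it was 18. Only 6 genes were called lower in both, *Vipr2*, *Ptgis*, *Serpine2*, *Lamb2*, *Adamtsl1* and *S1pr3*, chosen after their values were seen.

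Ranked by the smaller of its fold changes, the first of the 12 named shared genes was *Agt*, angiotensinogen, the precursor of the angiotensin peptides. It stood at 565 and 519 in interstitial SMC and at 972 and 649 in apex fibroblasts, but at 2.68 and 1.56 in vascular SMC and at 13.3 and 6.35 in clusters 1, 5 and 7. The log2 fold change was 8.16 against vascular SMC (SE 0.820, adjusted p = 0.000322) and 8.25 against clusters 1, 5 and 7 (SE 0.494, adjusted p = 2.42e-07), and between the clusters it was -0.76 with an interval of -2.02 to 0.50. In all, 48 of 52 interstitial SMC and 44 of 44 apex fibroblasts lay above 100 counts per 500000, against 0 of 29 vascular SMC and 10 of 429 fibroblasts. *Sall1*, a zinc finger transcription factor, stood at 87.6 and 126 and at 109 and 176, and at 0.573 or less in vascular SMC (log2 9.54 against these and 7.84 against clusters 1, 5 and 7). *Syt13*, of the synaptotagmin family of membrane traffic, stood at 212 and 169 and at 278 and 194. With cluster 6 added to the fibroblast reference, the log2 fold change of apex fibroblasts was 4.34 in place of 5.94 for *Syt13*. For *Enho* it fell from 4.81 to 3.50, whereas for *Plau* it rose from 5.82 to 6.13 and for *Nqo1* from 4.45 to 5.00. All 12 named shared genes were still called against that reference.

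*F2r*, a thrombin receptor, stood at 1278 and 761 in interstitial SMC and at 737 and 531 in apex fibroblasts. In vascular SMC it was at 20.1 and 26.0 and in clusters 1, 5 and 7 at 69.5 and 62.5. *Plau*, the urokinase that activates plasminogen, stood at 138 and 89.4 and at 318 and 446, and *Hpse*, heparanase, at 117 and 40.3 and at 312 and 319, so that both leaned to apex fibroblasts without passing the test. *Fblim1*, an adaptor of cell-matrix junctions, *Nqo1*, a quinone reductase, and *Enho*, which encodes the peptide adropin, leaned to interstitial SMC, with *Nqo1* at 233 and 222 against 100 and 78.0. Against vascular SMC *Fblim1* was not called with plate as a block (log2 4.11) or by voom (4.45), *Nqo1* with clusters 3 and 4 as the reference (4.36 in place of 8.08), and *Wnt5a* and *Fgf7* by voom (4.73 and 4.85) or with only the sums compared (5.09 and 4.67). *Tmem176a* and *Tmem176b*, neighbouring membrane protein genes on chromosome 6 that overlap at their starts, were both shared, and reads from the overlap cannot be told apart without strand.

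Sharing did not mean equal levels. Of the 36 shared genes, 7 were called higher in apex fibroblasts than in interstitial SMC, namely *Wnt5a*, *Fgf7*, *Mmp2*, *Igsf10*, *Col6a1*, *Col6a2* and *Lamb1*, and none was called higher in interstitial SMC. The fold change between the clusters was under 1 on the log2 scale for 17 of the 36, and 33 had a mean level of at least 50 in both. Of the genes that parted the clusters most, *Myocd*, *Cnn1* and *Tagln* were not called against vascular SMC, whereas *Hhip* (log2 9.03) and *Actg2*, at 279 and 262 there (log2 2.73, adjusted p = 0.0207, edgeR), were. *Notch3*, a receptor of vascular mural cells, was at 0.118 and 0.599 in interstitial SMC and 378 and 228 in vascular SMC.

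**Figure D4:**
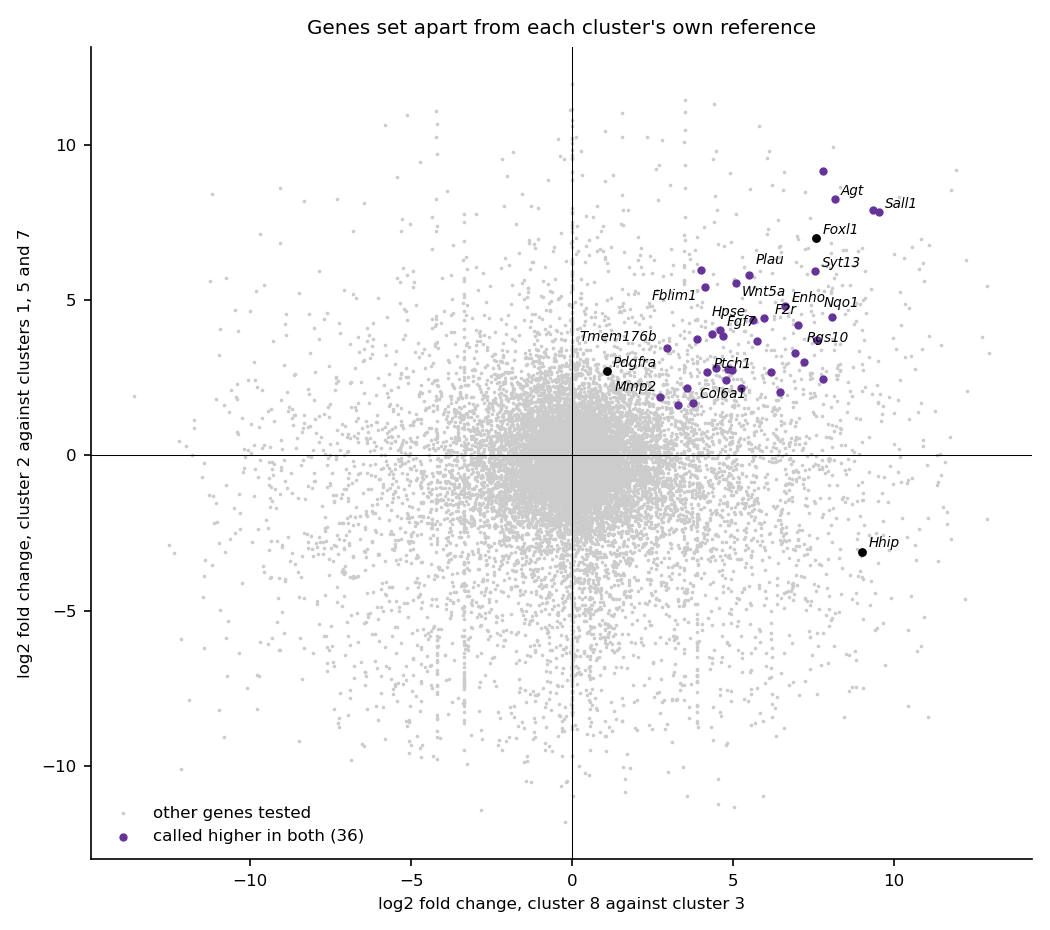
Log2 fold change of cluster 8 against cluster 3 on the horizontal axis and of cluster 2 against clusters 1, 5 and 7 on the vertical axis for each tested gene, with the 36 genes called higher in both in purple and *Foxl1*, *Pdgfra* and *Hhip* in black. *Agt* and *Sall1* lie far up and to the right, *Hhip* to the right and below 0, and *Pdgfra* above 0 and near the vertical axis.

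A like level was asked of the interval itself, since a p that misses the threshold does not show equality. Of 913 genes with a level of at least 50 on both plates of both clusters, 30 (3.29%) had a 95% interval of the fold change within -1 to 1 on the log2 scale. The spread between plates thus allowed few such statements, and without the 4 apex fibroblasts of colon_682s the number was 9, without colon_513s 2 and without colon_682s 3, whereas with plate as a block it was 49. Ribosomal or unnamed genes made up 8 of the 30. The named ones with the highest levels included *Fth1*, the ferritin heavy chain (1435 and 1024 against 1266 and 985), *Eef1a1*, an elongation factor of translation (986 and 882 against 1004 and 728), and *Cav1*, of membrane caveolae (645 and 342 against 532 and 469). *Tmem176a*, at 986 and 853 against 1250 and 900, was the only shared gene at a like level (log2 -0.15, 95% interval -0.97 to 0.66). *Gsn*, the actin-severing gelsolin, was alike in the pair at 689 and 1449 against 725 and 956, and was at 6866 and 4584 in clusters 1, 5 and 7. *Txnip*, *Tgm2*, *Itm2b*, *Psap* and *H3f3b* completed the 10.

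Lists of markers of other cell types differed in their levels. The summed level of 12 immune markers was at most 15.3, of 12 epithelial markers at most 20.7 and of 10 glial, interstitial cell of Cajal and mesothelial markers at most 14.8 in any plate of either cluster. *Cdh5*, which defines endothelium, was at 0 in both clusters on both plates, and *Pecam1* stood at 15.6 and 3.86 against 14.3 and 1.98. Of the 12 endothelial markers only *Esam* was called, higher in interstitial SMC, and the list summed to 159 and 172 against 15.4 and 46.7. Of 16 tested vascular mural markers *Mcam* and *Rgs5* were called higher in interstitial SMC. The mural list summed to 770 and 1003 in interstitial SMC, 368 and 671 in apex fibroblasts and 5486 and 5104 in vascular SMC, with *Rgs5* at 126 and 134 against 0.675 and 1.10 and at 629 and 716 in vascular SMC.

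Genes known to rise during tissue dissociation were higher in apex fibroblasts than in clusters 1, 5 and 7. Their 16 genes summed to 10520 and 6783 in interstitial SMC, 19224 and 12880 in apex fibroblasts, 16359 and 13075 in vascular SMC and 2129 and 4461 in clusters 1, 5 and 7. Between interstitial SMC and apex fibroblasts *Ier2*, an immediate early gene, was the only call, at 92.3 and 186 against 678 and 797. The plates of apex fibroblasts lay wholly above for 9 of the 16 (14.7% of all genes did) and those of interstitial SMC for 0, and the median log2 fold change was -1.25. Against clusters 1, 5 and 7, 14 of the 16 were called higher in apex fibroblasts (3.02% of all genes were), and none of the 16 was among the 36 shared genes. Their part in the 452 genes called there, and in the calls between the clusters, was not tested.

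Single cells are given by their sums over the named genes, which were picked for their separation in these same 96 cells. Summed over the 12 named genes higher in apex fibroblasts, interstitial SMC held 2.93 to 756 counts per 500000 (median 143), and the lowest apex fibroblast held 3113. Summed over the 12 named genes higher in interstitial SMC, apex fibroblasts held 39.8 to 2733 (median 284), and the lowest interstitial SMC held 8642. That the ranges did not meet follows in part from that choice and from the clusters having been drawn on these genes.

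Values in cells outside the Acta2GFP strain were not used in any call, although the study drew its clusters over all strains. Apex fibroblasts were present in numbers on 6 plates, 4 of them from PdgfrbGFP and PdgfraGFP mice. On the 4 plates of the other strains, each of the 12 named genes higher in apex fibroblasts lay above both plates of interstitial SMC. Each of the 12 higher in interstitial SMC lay below. The interstitial SMC plates were those used to pick these genes, and the study drew the labels on the same counts. This order is therefore no independent evidence. *Hhip* was at 0.358 to 2.40 on the 4 plates of the other strains, *Acta2* at 45.6 to 193 and *Pdgfra* at 560 to 1194. *Rgs10* was at 230 to 402 on those plates, against 521 and 302 in interstitial SMC. Of the 12 named shared genes, 6 lay above both plates of interstitial SMC on these 4 plates, 3 lay below and 3 did neither.

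The 4 cells of cluster 8 from PdgfrbGFP mice were set beside a level of 100, which some named shared genes also missed in Acta2GFP interstitial SMC (*Wnt5a* at 38.9 and 72.3). Of the 12 named genes higher in interstitial SMC, 10 lay above 100 counts per 500000 in all 4 cells and 2 in 3 cells, *Myocd* being at 0 in 1 cell. Of the 12 higher in apex fibroblasts, 11 lay above 100 in none and *Emid1* in 1, at 505. Of the 12 shared genes, 4 lay above 100 in all 4 cells and 3 in none, and *Fgf7* was at 0, 0, 15.2 and 11.2, against 97.3 and 81.7 on the plates of Acta2GFP. *Hhip* was at 2332, 1192, 423 and 1383 counts per 500000 in the 4 cells, *Rgs10* at 298, 375, 248 and 480, and *Actg2* at 2101, 887, 1185 and 918. *Pdgfra* was at 0, 0, 43.4 and 43.5. *Foxl1* was at 0, 81.2, 17.4 and 1.40, and *Agt* at 71.5, 0, 17.4 and 852, so that 1 of 4 cells lay above 100 for *Agt* against 48 of 52 in Acta2GFP mice. These cells had no replicate beyond the plate and were not tested.

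**Figure D5:**
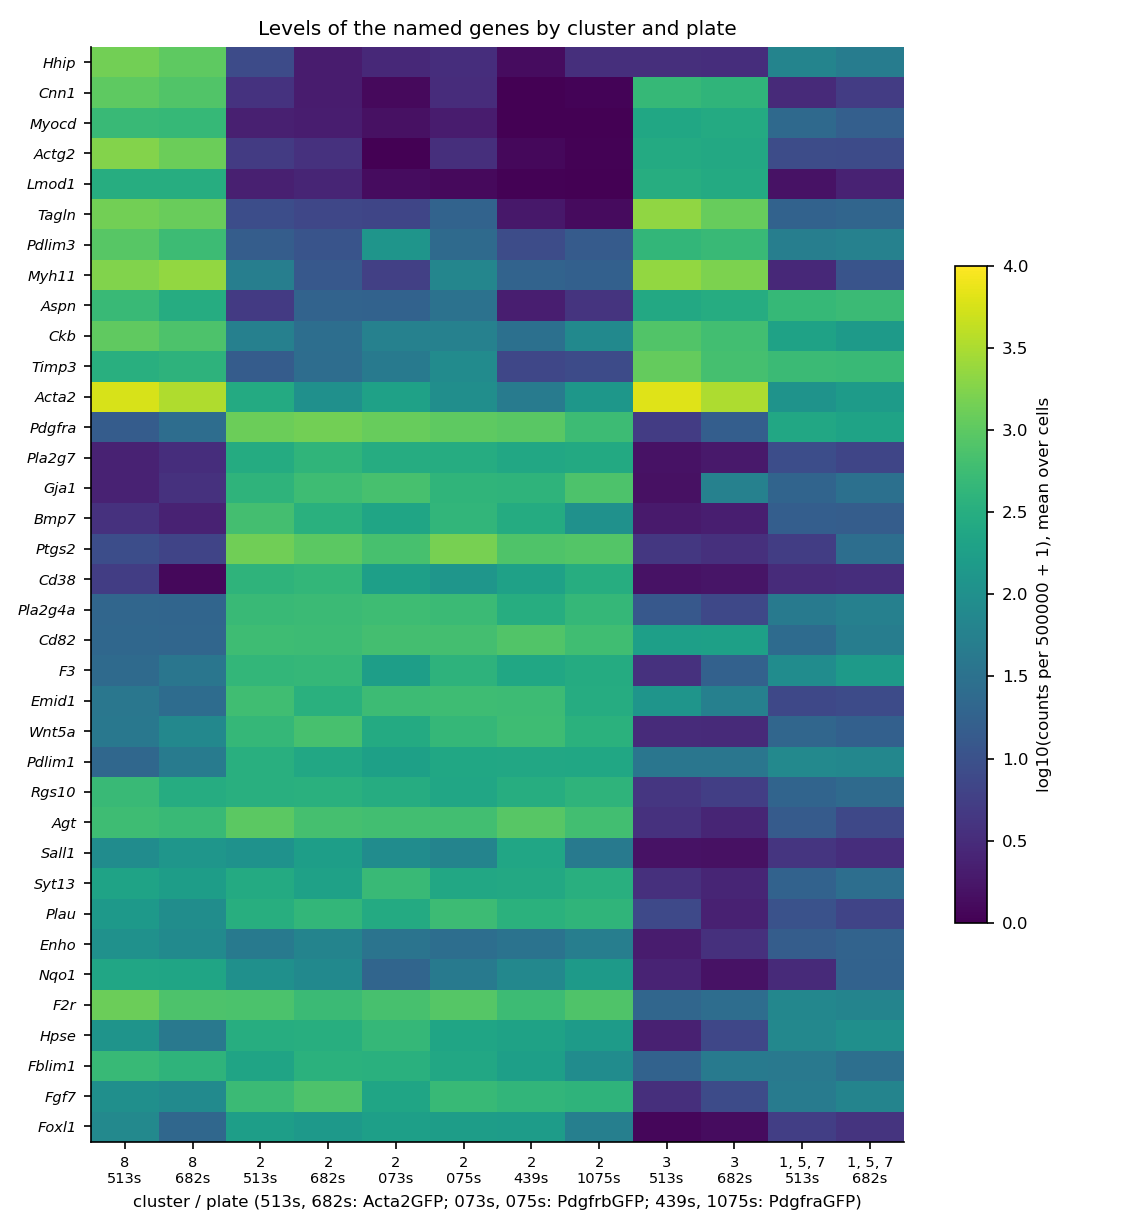
Levels of the named genes by cluster and plate, as log10 of counts per 500000 plus 1, for cluster 8, cluster 2 on 6 plates, cluster 3 and clusters 1, 5 and 7. Genes from *Hhip* to *Acta2* are bright in the 2 columns of cluster 8 and dark in the 6 of cluster 2, genes from *Pdgfra* to *Pdlim1* are the reverse, and most genes from *Rgs10* to *Fgf7* are bright in both and dark in cluster 3.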

How the data were processed

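The authors mapped SmartSeq2 reads to GRCm38 with TopHat2, assigned them to genes with featureCounts and deposited the raw counts of each gene and cell, without stated strand. Of 46517 genes, 46005 had a symbol in GENCODE vM21, which gave positions. The 92 ERCC spike-ins (1.16% of counts) were left out. Cluster, strain and plate come from the labels, and wells of 1 plate may share a mouse. Counts were summed per cluster and plate over at least 4 cells (14 sums of 7 clusters), filtered with filterByExpr, normalized by TMM and tested with edgeR 4.0.16, whose p-values were adjusted by Benjamini-Hochberg. Standard errors are the log2 fold change over the root of F. Test scripts were checked on simulated data. R 4.3.3, limma 3.58.1, DESeq2 1.42.0 and Python 3.11.15 were used. All 96 columns compared were distinct, and 2 cells below 50000 counts were left out of thinned shares. Doublets were not called here: the authors had already discarded cells with very many genes.

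The members, lists and tests were chosen with earlier results of these data known. Named genes are the 4 markers, the 12 enriched genes of largest fold change in each direction without overlap of plates, the 12 shared genes with the largest smaller fold change and a mean level of at least 50 in both clusters, and the 10 highest genes at a like level, ribosomal, mitochondrial and unnamed genes left out. Members of the 23 gene lists are named where they were called or show a level against a call. Alternatives were DESeq2, voom with weights, no filter, a plate block, other sums, references, thresholds and averages, and each plate left out. The shared plate in the labels was checked for pairing: the deviations of clusters 2 and 8 correlated at r = 0.0875, and those of all pairs of clusters at -0.0099 to 0.1415.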

Additional observations from a re-analysis of the deposited data

Results flagged for a closer look

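In apex fibroblasts, the 46 genes named by rule were looked at over the 6 plates with such cells for a plate that lies far from the rest. For normal values of equal precision, chance would give this in about 1 of 20 genes. The plates differ in strain, depth and number of cells, so that rate need not hold here. In all, 8 values were flagged. Plate colon_1075s stood apart with a *Foxl1* level of 52.4, below the next at 142, and plate colon_513s with an *Hhip* level of 7.19, above the next at 2.40. Plate colon_682s, with its 4 apex fibroblasts, had a *Pla2g7* level of 418, above the next at 303. Plate colon_439s had a *Cd82* level of 816, above the next at 643. Plate colon_073s had a *Pdlim3* level of 120, above the next at 23.1. Among the genes at a like level, plate colon_513s had *Fth1* at 1266, above the next at 1063, and *Tmem176a* at 1250, above the next at 917, and plate colon_1075s had *H3f3b* at 769, above the next at 561. The *Foxl1* level of 52.4 lay between the interstitial SMC plates, at 75.2 and 20.6, whereas the *Hhip*, *Pla2g7*, *Cd82* and *Pdlim3* values lay on the apex fibroblasts' side of both.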

How the results depend on the processing

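The number of calls and the balance of higher and lower calls depended strongly on the model. The counts below are for interstitial SMC against apex fibroblasts (120 genes), against vascular SMC (121), apex fibroblasts against clusters 1, 5 and 7 (565), shared genes (36), genes at a like level (30) and enriched genes (40), in this order. DESeq2 gave 1110, 1233, 1538, 122, 11 and 63. No filter on low counts gave 316, 338, 1134, 66 and 17 for the first 5. With only the sums compared in the fit, the first was 241 (90 higher and 151 lower), the third 1107, the like level 15 and the enriched 64. Means per cell with limma gave about 4.4e+02 (235 higher and 204 lower), 580 and 860 for the 3 comparisons and 82 for the like level. At least 10 cells per sum gave 79 and 370 for the first 2. Voom with quality weights gave 121 for the first, split 30 higher and 91 lower, and 235 for the second. Leaving out a plate gave 10 to 13, 17 to 112, 225 to 297, 8 to 18, 2 to 3 and 9 to 10. Leaving out the apex fibroblasts of colon_682s, chosen after seeing the data, gave 37 for the first, 298 for the third, 9 for the like level and 22 for the enriched. An interval within 0.5 left 0 genes at a like level by edgeR and within 1.5 left 256, and the enriched genes were 86 with scaled detection and 70 without the adjusted p. The causes were not tested.

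With plate as a block, 109 genes were called in the first comparison and 49 lay at a like level, and *Myh11* (log2 5.74), *Gja1* (-8.32), *Cd38* (-8.17) and, against vascular SMC, *Fblim1* (4.11) lost their call with folds near the reported ones. Of the named genes, no other lost or gained a call under the block. Over the plates, clusters 2 and 8 correlated at r = 0.0875, and all pairs of clusters lay between -0.0099 and 0.1415. *Rgs10* and 7 of the 10 named genes at a like level, with folds near 0, changed sign in at least 1 alternative. Over 10 alternatives the 24 genes named between the clusters gave 240 values, of which 180 were still called, 60 were not and 0 reversed, and of 264 values for the 12 shared genes 240 were still called. *Foxl1* passed against vascular SMC with DESeq2 (log2 7.48), no filter (7.63), means per cell (5.00) and at least 10 cells (7.66). With 2 plates per cluster, of which colon_682s held 4 apex fibroblasts, many intervals were wide, as for *Foxl1* between the clusters (-5.27 to 1.36).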

Other observations

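Wells that share a plate's row or column share reagents and indices. Each cell's summed level of the 12 named genes of the opposite cluster was set beside the summed counts of these genes in the cells sharing its row or its column. Spearman's rho was 0.214 in 40 interstitial SMC of colon_513s, -0.126 in 12 of colon_682s and 0.416 in 40 apex fibroblasts of colon_513s. The mitochondrial share of counts had a median of 1.51% and 1.45% in interstitial SMC and 1.25% and 1.10% in apex fibroblasts, and counts per spike-in count a median of 46.2 and 55.6 against 62.9 and 106.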
